A study of Mus musculus with 24 samples.

Results

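The genes described here are 9 mouse genes of the MHC class I presentation pathway, chosen by name: H2-K1, H2-D1, B2m, Tap1, Tap2, Tapbp, Tapbpl, Nlrc5 and Erap1. They are 9 of 27360 gene names on the array, and 11 of its 39429 gene probes carry one of these names. Probes for 8 of the 11, covering 7 genes, passed the filter on dim signals and were among the 13277 probes tested.

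Arrays were hybridised with RNA of donor OT-I CD8+ T cells in a mouse model of acute graft-versus-host disease. The donors were C57BL/6-Tg(TcraTcrb) 1100Mjb/J animals, called OT-I, whose T cell receptor recognises an ovalbumin peptide, and the recipients were of the line C57Bl/6-Tg(CAG-OVA)-916Jen/J, called Act-mOVA, in which a ubiquitously active promoter drives ovalbumin. Recipients were female mice of 8 to 16 weeks that received 11 Gy of total body irradiation, then donor bone marrow and splenocytes. Labels give the same sex and age for all samples. The OT-I cells carried CD45.1, all other cells of graft and host carried CD45.2, and the cells were taken by magnetic positive selection for CD45.1. The 4 graft samples were naive cells of day 0, and the other 20 were cells recovered on day 4, with 5 samples each from blood, liver, lung and small intestine (called intestine here). No samples from hosts without ovalbumin were analysed here, so time after transfer, irradiation of the host and antigen cannot be told apart. For each sample 300 pg of RNA went through 2 rounds of amplification. Whether samples came from separate animals is not stated in the sources used here, and p-values therefore cover only the spread between these samples, which may be technical.

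MHC class I molecules carry short peptides from inside the cell to its surface, where CD8+ T cells read them. Cytosolic proteasomes and peptidases cut proteins, the Tap1 and Tap2 proteins together pump the peptides into the endoplasmic reticulum, Erap1 trims them, and tapasin (Tapbp) and its relative Tapbpl help load them onto a heavy chain (H2-K1, H2-D1) paired with beta-2 microglobulin (B2m). Nlrc5 is a transcriptional activator of class I genes, and interferon gamma raises many genes of the pathway in most cell types. OT-I cells themselves are known to recognise their ovalbumin peptide on the H2-K1 product of the b haplotype, but the values here are the transcripts of the T cells, not of their targets.

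The class I genes are known for conserved promoter elements through which Nlrc5, NF-kappaB and interferon-regulated factors act. The stretches below are the 250 bases upstream of the start site for the members whose levels are described next and that have an entry in the RefSeq promoter table on GRCm38.p6, where 6 of the 9 members were found. Tap2, Tapbpl and Nlrc5 are named only. Sequences run 5′ to 3′ on the gene's strand. Capitals mark matches, on either strand, to an interferon-stimulated response element (ISRE), an NF-kappaB consensus, the cyclic AMP response element core TGACG or a CCAAT box (ATTGG on the other strand).
H2-K1 (chr17:34000348-34000597, minus strand): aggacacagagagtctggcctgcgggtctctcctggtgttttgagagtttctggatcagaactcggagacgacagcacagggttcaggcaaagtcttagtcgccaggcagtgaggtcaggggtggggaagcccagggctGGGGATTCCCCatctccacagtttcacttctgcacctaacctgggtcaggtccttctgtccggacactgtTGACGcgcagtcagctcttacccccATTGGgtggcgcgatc
H2-D1 (chr17:35262844-35263093, plus strand): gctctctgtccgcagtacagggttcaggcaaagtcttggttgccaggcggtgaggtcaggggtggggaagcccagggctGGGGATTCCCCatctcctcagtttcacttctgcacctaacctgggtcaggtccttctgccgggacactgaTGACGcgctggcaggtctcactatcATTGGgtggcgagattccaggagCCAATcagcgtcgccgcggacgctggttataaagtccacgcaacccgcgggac
B2m (chr2:122147437-122147686, plus strand): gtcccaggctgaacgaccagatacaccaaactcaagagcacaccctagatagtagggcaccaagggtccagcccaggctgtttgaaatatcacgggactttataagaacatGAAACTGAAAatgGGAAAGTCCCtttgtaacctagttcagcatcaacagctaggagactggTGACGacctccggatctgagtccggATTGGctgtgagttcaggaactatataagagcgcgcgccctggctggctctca
Tap1 (chr17:34187306-34187555, plus strand): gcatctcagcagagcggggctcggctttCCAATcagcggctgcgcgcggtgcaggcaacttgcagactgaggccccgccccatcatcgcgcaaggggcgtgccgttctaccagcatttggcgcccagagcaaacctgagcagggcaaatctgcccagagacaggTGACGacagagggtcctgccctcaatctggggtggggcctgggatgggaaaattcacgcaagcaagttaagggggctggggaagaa
Tapbp (chr17:33919228-33919477, plus strand): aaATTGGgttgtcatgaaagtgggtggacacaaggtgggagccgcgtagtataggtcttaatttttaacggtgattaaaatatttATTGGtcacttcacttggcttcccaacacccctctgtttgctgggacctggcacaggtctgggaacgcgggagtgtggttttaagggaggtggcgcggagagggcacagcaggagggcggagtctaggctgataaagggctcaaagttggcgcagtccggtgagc

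H2-K1 and H2-D1 held the same letters at the NF-kappaB match. In both, the TGACG core lay 3′ of it and a CCAAT box 3′ of the core. Neither held a match to the strict 10-letter pattern searched for the interferon-stimulated response element. Looser forms of that element were not searched, so whether these stretches hold such a form was not tested. B2m held a match to the strict pattern, an NF-kappaB match and a TGACG core in that order, then a CCAAT box. Tap1 held the core and a CCAAT box but no NF-kappaB match, and Tapbp held 2 CCAAT boxes only. The Erap1 stretch held none of the 5 motifs searched, and none of these promoters held a gamma-activated site (TTCNNNGAA). Of 32841 promoters of the same length in the table, 2.98% held the interferon-stimulated response element, 7.25% the NF-kappaB consensus, 17.8% the TGACG core, 33.9% a CCAAT box and 7.02% the gamma-activated site. These are matches of letters, not shown to be bound in these cells.

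Levels are given as log2 of the processed signal minus the 75th percentile of gene probes on that array, so a level of 0 is a signal equal to that percentile. Differences are differences of these log2 levels, estimated by 1 limma model over the 24 arrays and called at an adjusted p under 0.05 (Benjamini-Hochberg over 13277 probes). Across the arrays 22.6% to 38.6% of gene probes were well above background, and the number of arrays limits the precision. The T cell marker list (Cd3, Cd8 and others) had 9 of 10 genes well above background on all arrays of each group. The B cell list had 7 of 10 genes well above background on all graft arrays, and its summed linear level, relative to the 75th percentile, was 241 to 299 in the graft against 2.83 to 18.8 on day 4. Ms4a1 and Spib were well above background on 4 of 4 graft arrays and 0 of 20 day 4 arrays. The neutrophil and monocyte list summed to 376 to 487 in the graft and 35.7 to 197 on day 4. The erythroid list had 3 of 3 tested genes called lower on day 4 (median log2 difference -4.87), beside 21.4% of all probes. A gene can pass the filter through the graft arrays alone, where these were high, so the count is no independent support. In lung, 3 of 3 tested lung epithelial genes were called higher than in the graft (median 2.97), blood (3.65) and liver (3.18). The shares of all probes called higher were 24.9%, 0.497% and 0.241%. Only 3 of the 6 listed genes were tested. A gene can pass the filter through the lung arrays alone, so this count too is no independent support. The list's summed level in lung ran from 3.06 to 170. The macrophage list summed to 4.33 to 138 in lung, 2.57 to 149 in intestine and 14.2 to 53.4 in the graft, so arrays of a tissue differed widely. Of its 4 tested genes 0 were called higher than in the graft in lung or intestine, and 1 was called lower in lung. Every comparison with the graft below carries called differences in markers of other cells, and so do those of lung or intestine with blood and of lung with liver or intestine. For liver against blood and for intestine against liver 0 of 13277 probes were called, markers included. The part of such differences in the members' differences was not tested. In bulk RNA, fewer cells of a type and less RNA per cell cannot be told apart. The graft arrays sat on a slide of their own, so slide and graft cannot be told apart, while each of the 5 other slides held 1 array of each day 4 site.

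Against the graft, the mean of the 4 day 4 sites had 55.3% of all tested probes called (33.8% higher, 21.4% lower), so a call in this comparison was common. All 20 day 4 arrays lay above every graft array for 11.1% of all tested probes, and below for 6.32%. For counts below 20 arrays, given for several members, the share of all probes was not computed. Of the 7 tested member genes 4 were called: Tap2 and H2-K1 fell, and Tapbp and Nlrc5 rose. H2-D1, B2m and Tapbpl were not called. The median log2 difference of the 7 genes was -0.48, beside 0.18 for all tested probes. The zero of this scale depends on the scaling: the median of all probes was -0.06 with quantile normalisation and -0.36 with scaling to the median of probes detected on all arrays. Of the called probes 61.2% were higher, and this share was 49.6% with quantile normalisation or the deposited log2 table, 39.1% with the 75th percentile of detected probes, 35.2% with their median and 68.4% with normexp background correction. Apart from each probe's median, quantile normalisation and the deposited table hold nearly the same values (lowest correlation 0.99999). Counts of alternatives below that include both therefore do not count separate checks. Over these 6 settings, and relative to the median of all probes under each, Tap2 lay between -1.67 and -1.20, the first H2-K1 probe between -0.67 and -0.39, Tapbp between 0.65 and 1.00, and Nlrc5 between 0.65 and 0.86.

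**Figure D1:**
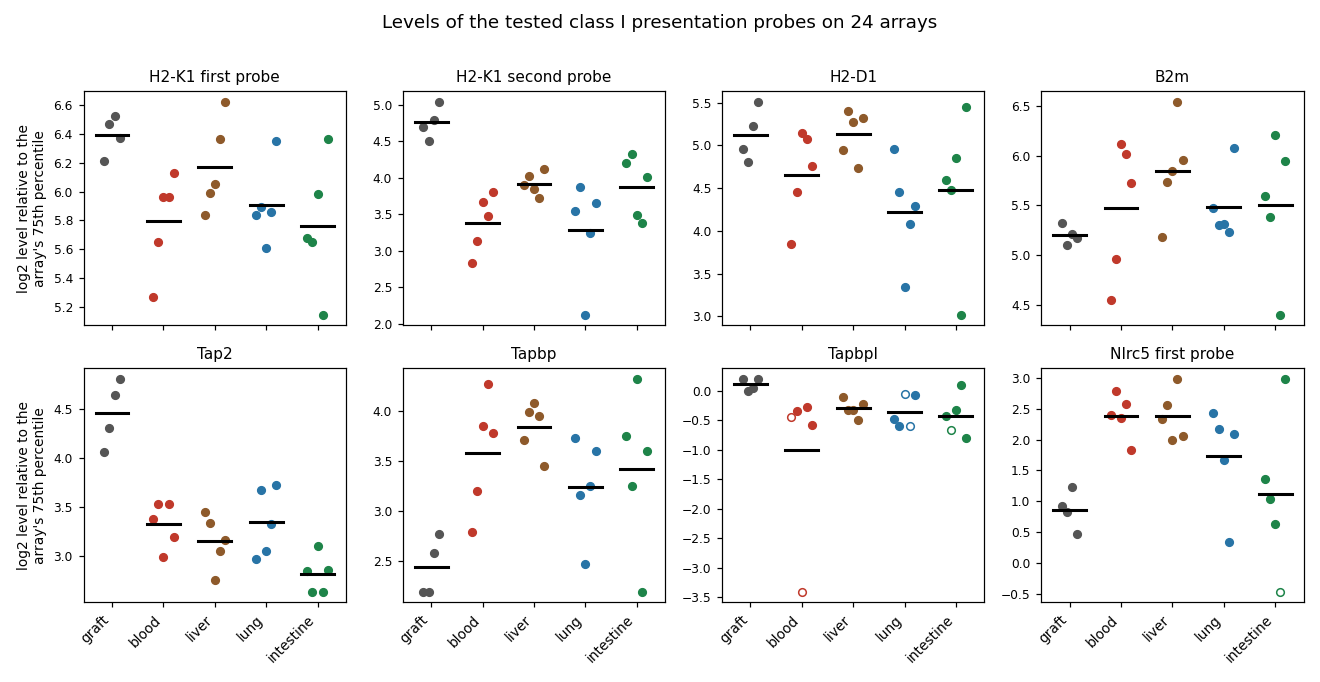
Log2 level of the 8 tested probes (vertical axis, relative to the array's 75th percentile) on 24 arrays, by group: 4 graft arrays and 5 arrays for each day 4 site. Each point is an array, open where the probe was not well above background, and the bar is the group mean. All 20 day 4 arrays lie below every graft array for Tap2 and the second H2-K1 probe, as for 6.32% of all tested probes. Blood 3 lies at -3.41 for Tapbpl.

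Tap2, one chain of the peptide transporter, had the smallest adjusted p of the members. Its probe lies at chr17:34353116-34353175 (mm9, plus strand) and was well above background on all 24 arrays. In the graft its log2 level was 4.06, 4.30, 4.64 and 4.80 in samples 1 to 4. The 5 blood samples had levels of 3.38, 3.53, 2.99, 3.53 and 3.20, and the liver samples 3.45, 3.34, 2.76, 3.05 and 3.16. These 10 values lay below the lowest graft value, as did those of the other tissues. Lung gave 2.97, 3.67, 3.05, 3.33 and 3.72, and intestine 2.85, 2.64, 3.10, 2.64 and 2.86. Thus 20 of 20 day 4 arrays were below every graft array, a pattern that 6.32% of all tested probes showed in that direction. The log2 difference of day 4 from graft was -1.29 ± 0.177 (SE), or 2.44-fold lower, with a limma adjusted p of 2.70e-06. It stayed called in all 36 alternatives, with log2 differences from -1.83 to -0.95.

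By site, Tap2 was lower than in the graft at every site: the log2 difference was -1.12 (blood), -1.30 (liver), -1.10 (lung) and -1.63 (intestine), with limma adjusted p-values of 1.69e-04, 4.07e-05, 3.60e-04 and 5.29e-06. These 4 comparisons share the graft arrays. Intestine had the lowest mean level (2.82 ± 0.19 SD, n = 5), followed by liver (3.15 ± 0.27), blood (3.33 ± 0.23) and lung (3.35 ± 0.34). Its differences from blood (-0.51, 95% interval -0.93 to -0.08) and from lung (-0.53, -0.95 to -0.11) had limma adjusted p-values of 0.0983 and 0.397, so neighbours in this order were not told apart. Within the slides, intestine was below lung on 4 of 5 and below blood on 4 of 5.

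Tap1, the other chain of the transporter, could not be tested: its probe (10 spots, chr17:34330854-34330913, mm9, plus strand) was well above background on 3 of 24 arrays, which were graft 3, blood 4 and intestine 5. Its measured log2 levels ran from -0.82 to -0.61 in the graft and from -1.54 to -0.64 on day 4. These lie near the limit of detection and have no reliable order, and the level of this probe says nothing against that of the Tap2 probe. Erap1, the trimming peptidase (chr13:74828969-74829028, mm9, plus strand), was well above background on 1 array, intestine 5, where its log2 level was -0.90. Its measured means ran from -2.59 in the graft to -1.14 in blood. No fold is given, since the day 4 mean was below the lowest graft level that counted as well above background.

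H2-K1, a classical heavy chain, was read by 2 probes. The first lies at chr17:34133055-34133114 (mm9, minus strand) and was printed in 10 spots, the second at chr17:34133984-34134043 in 1 spot. Both were well above background on all arrays. The first probe had log2 levels of 6.21, 6.47, 6.52 and 6.37 in the graft. Blood samples had 5.27, 5.65, 5.96, 5.96 and 6.13, all below the graft, and liver samples 5.84, 5.99, 6.05, 6.36 and 6.62, which overlapped it. Lung samples had 5.84, 5.89, 5.61, 5.86 and 6.35 and intestine samples 5.68, 5.65, 5.98, 5.15 and 6.36. In total 16 of 20 day 4 arrays were below every graft array and 1, liver 5, was above. The log2 difference of day 4 from graft was -0.48 ± 0.196 (SE), or 1.40-fold lower, with a limma adjusted p of 0.0410.

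This call for the first H2-K1 probe was close to the threshold. It was lost in 13 of 36 alternatives, and limma adjusted p-values over all of them ran from 1.12e-05 to 0.336. Leaving out any 1 of the 4 graft arrays ended it (adjusted p 0.0535, 0.103, 0.110 and 0.0801 without graft 1, 2, 3 and 4), and so did leaving out liver 1, 2 or 3, lung 3, blood 2 or intestine 1 (adjusted p 0.0528, 0.0522, 0.0506, 0.0519, 0.0521 and 0.0513). With normexp background correction the difference was -0.25 (limma adjusted p 0.336), and with the 75th percentile of detected probes it was -0.89 (limma adjusted p 3.15e-04). By site the first probe was called in blood (-0.60, limma adjusted p 0.0369) and intestine (-0.63, 0.0459), and not in liver (-0.22) or lung (-0.48, 95% interval -0.98 to 0.02). The intestine call was lost in 14 of 22 alternatives, among them each that left out graft 1, 2, 3 or 4 or intestine 1, 2 or 4 (limma adjusted p 0.0570, 0.0983, 0.102, 0.0802, 0.0807, 0.0770 and 0.102). The blood call was lost in 10 of 22, among them those without graft 2, 3 or 4 or blood 1 or 2 (0.0788, 0.0836, 0.0610, 0.0988 and 0.0694).

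The second H2-K1 probe gave log2 levels of 4.70, 4.51, 4.79 and 5.04 in the graft. Blood had 2.83, 3.13, 3.67, 3.48 and 3.80, and liver 3.90, 4.02, 3.85, 3.72 and 4.12. Lung had 3.55, 3.87, 2.13, 3.24 and 3.65, and intestine 4.20, 4.32, 3.49, 3.38 and 4.01. All 20 day 4 arrays were below every graft array, as for 6.32% of all tested probes, and lung 3 was the lowest. The difference was -1.14 ± 0.241 (SE), or 2.21-fold lower, with a limma adjusted p of 4.01e-04, and it was called in all 35 alternatives that tested this probe. Both probes fell. The second shares letters with probes of related genes, the longest with H2-T23, a nonclassical heavy chain, shown because it bears on which gene the second probe reads.
H2-K1 second probe and H2-T23 probe, shared run: tggagctgtggtggcttttgtgatgaaga
This run is 29 of 60 bases. H2-T23 itself fell (-0.72, limma adjusted p 0.00374). Heavy chain genes are related in sequence, so how far each H2-K1 and H2-D1 probe also reads other family members is uncertain.

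By site the second H2-K1 probe was called at every site, with log2 differences of -1.38 (blood), -0.84 (liver), -1.48 (lung) and -0.88 (intestine) and limma adjusted p-values of 4.87e-04, 0.0216, 4.20e-04 and 0.0233. The liver call was lost without graft 4 (-0.74, limma adjusted p 0.0653). The intestine call was lost without graft 4 (-0.79, 0.0730) and without intestine 3 (-0.78, 0.0560), and reached 0.05 without lung 4 and intestine 4 together (-0.76).

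H2-D1, the other classical heavy chain on the array (chr17:35403886-35403945, mm9, plus strand), had log2 levels of 4.96, 4.80, 5.23 and 5.51 in the graft. Blood had 3.84, 4.45, 5.14, 5.08 and 4.76, and liver 4.95, 5.40, 5.28, 4.74 and 5.32. Lung had 4.96, 4.46, 3.34, 4.08 and 4.29, and intestine 4.59, 4.48, 4.85, 3.02 and 5.45. All groups overlapped the graft, with 11 of 20 day 4 arrays below every graft array and 0 above. The difference was -0.50 ± 0.310 (SE; 95% interval -1.14 to 0.14), with a limma adjusted p of 0.174. It was called under 4 of 36 alternatives, all of them other scalings, at -0.78 with quantile normalisation (limma adjusted p 0.0347) and -1.04 when scaled to the detected probes' median (0.00257), while normexp gave -0.20 (0.645). In lung the difference was -0.90 (95% interval -1.68 to -0.11, limma adjusted p 0.0668), and 8 of 22 alternatives called it, among them the one without lung 1 (-1.08, 0.0350).

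B2m, the light chain shared by all class I molecules (chr2:121978401-121978460, mm9, plus strand), had log2 levels of 5.32, 5.10, 5.21 and 5.17 in the graft, a narrow range. Blood had 4.55, 4.96, 6.12, 6.02 and 5.72, and liver 5.18, 5.73, 5.84, 6.54 and 5.95. Lung had 5.47, 5.30, 5.31, 5.23 and 6.08, and intestine 5.59, 5.38, 6.21, 4.40 and 5.94. On day 4, 13 of 20 arrays were above every graft array and 3 (blood 1, blood 2 and intestine 4) were below. The difference was 0.38 ± 0.286 (SE; 95% interval -0.22 to 0.97), with a limma adjusted p of 0.269. It was called by limma in 0 of the 36 alternatives, and its sign turned with the scaling (-0.17 with the median of detected probes, 0.76 with normexp; limma adjusted p-values from 0.0527 to 0.920). In liver, where the difference was 0.65 (95% interval -0.08 to 1.37, limma adjusted p 0.125), it was called in 2 of 22 alternatives, normexp (1.00, 0.0407) and the fit to the compared arrays only (0.65, 0.0448). Its day 4 difference minus the median of all probes ran from 0.14 to 0.51 over the 6 settings.

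Tapbp, tapasin, which bridges the transporter and the empty heavy chain, rose. Its probe (chr17:34065963-34066022, mm9, plus strand) had log2 levels of 2.19, 2.19, 2.58 and 2.77 in the graft. Blood had 2.79, 3.20, 3.85, 4.27 and 3.78, and liver 3.71, 3.99, 4.08, 3.95 and 3.45, all above the graft. Lung had 3.73, 3.16, 2.47, 3.25 and 3.60, and intestine 3.75, 3.25, 4.32, 2.19 and 3.60. Only lung 3 and intestine 4 reached into the range of the graft, so 18 of 20 day 4 arrays were above it. The difference was 1.09 ± 0.287 (SE), or 2.13-fold higher, with a limma adjusted p of 0.00298. It was lost in 2 of 36 alternatives, the scalings to detected probes (0.68, limma adjusted p 0.0566, and 0.54, 0.0581), and with quantile normalisation it was 0.59 (0.0406).

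By site the log2 difference of Tapbp was 1.15 in blood, 1.40 in liver and 0.99 in intestine, with limma adjusted p-values of 0.00843, 0.00218 and 0.0320. In lung it was 0.81 (95% interval 0.08 to 1.54) with a limma adjusted p of 0.0734. The lung difference was called without lung 3 (1.00, 0.0332) and without lung 4 and intestine 4 together (0.81, 0.0448). The intestine call was lost in 13 of 22 alternatives, among them those without graft 1 (0.91, 0.0834), graft 2 (0.91, 0.0837), intestine 1 (0.91, 0.0701), intestine 3 (0.77, 0.0938) and intestine 5 (0.94, 0.0603). In blood the call was lost in 4 of 22 alternatives, all other scalings (0.52 to 0.81), and in liver in 1, the detected probes' median (0.70, limma adjusted p 0.0508). No pair of sites was called for Tapbp.

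Tapbpl, a tapasin-related peptide editor (chr6:125174614-125174673, mm9, minus strand), was dim, with 19 of 24 arrays well above background. Its log2 level was 0.20, 0.00, 0.05 and 0.20 in the graft, and on day 4 it ran from -0.60 to -0.06 in lung, from -0.49 to -0.11 in liver and from -0.80 to 0.10 in intestine. Blood had -0.45, -0.34, -3.41, -0.28 and -0.58, and the array at -3.41, blood 3, was not well above background. The 19 day 4 arrays other than intestine 4 lay below every graft array. The difference over all sites was -0.63 ± 0.345 (SE; 95% interval -1.35 to 0.08; limma adjusted p 0.122), and without blood 3 it was -0.48 with an adjusted p of 0.0150. It was also called with array weights (-0.57, limma adjusted p 0.0338) and with both scalings to detected probes (-1.04, 0.0165, and -1.18, 0.00772). In blood Tapbpl was called (-1.12, limma adjusted p 0.0279), and without blood 3 the difference was -0.52 (0.0396). That call was lost in 6 of 21 alternatives, without graft 1 (-1.09, 0.0571) and without graft 4 (-1.09, 0.0556) among them, and with normexp the difference was -0.43 (0.0504).

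Nlrc5, the class I transactivator, rose. Its first probe (chr8:97051105-97051164, mm9, plus strand) was well above background on 23 of 24 arrays, and the second (chr8:97030478-97030624, a span that is longer than a probe) on 0 of 24. The first probe had log2 levels of 0.93, 0.83, 1.23 and 0.48 in the graft. Blood had 2.39, 2.79, 2.35, 2.57 and 1.83, and liver 2.33, 2.56, 2.00, 2.98 and 2.05, so both were clear of the graft. Lung had 2.43, 2.17, 1.67, 0.35 and 2.09, and intestine 1.36, 1.04, 0.64, -0.46 and 2.98. Lung 4 and intestine 4 were below every graft array, and 16 of the 20 were above. The difference over all sites was 1.04 ± 0.386 (SE), or 2.05-fold higher, with a limma adjusted p of 0.0270. It was lost in 9 of 35 alternatives, among them those without graft 1 (1.06, 0.0563), graft 2 (1.02, 0.0642) or graft 4 (0.91, 0.0941), with quantile normalisation (0.59, 0.175) and with the median of detected probes (0.49, 0.221).

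For Nlrc5, blood and liver were the sites called against the graft in the main fit. Both were higher by 1.52 (limma adjusted p 0.00943 and 0.0107), while the difference was 0.87 in lung (95% interval -0.11 to 1.85, adjusted p 0.151) and 0.25 in intestine (-0.73 to 1.23, adjusted p 0.699). The blood and liver calls were each lost in 4 of 21 alternatives, all of them other scalings. With other scalings the intestine difference was as low as -0.11 and as high as 0.43, so its sign was not settled. Group SDs of the log2 level over 5 arrays were 0.36 (blood), 0.40 (liver), 0.82 (lung) and 1.25 (intestine). Intestine against blood was -1.27 (95% interval -2.19 to -0.35, limma adjusted p 0.0650) and intestine against liver -1.27 (-2.19 to -0.35, adjusted p 0.152). Without intestine 5, the highest of its group, these were -1.74 (adjusted p 0.00371) and -1.74 (0.00850). Within slides the level in intestine was below that in blood on 4 of 5 and ranged from -3.03 to 1.16 relative to it. Lung without lung 4 was 1.22 above the graft (limma adjusted p 0.0367), and with array weights lung was called too (1.14, 0.00166). Lung was not told apart from blood or liver (-0.64 against each, limma adjusted p 0.268 and 0.357).

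**Figure D2:**
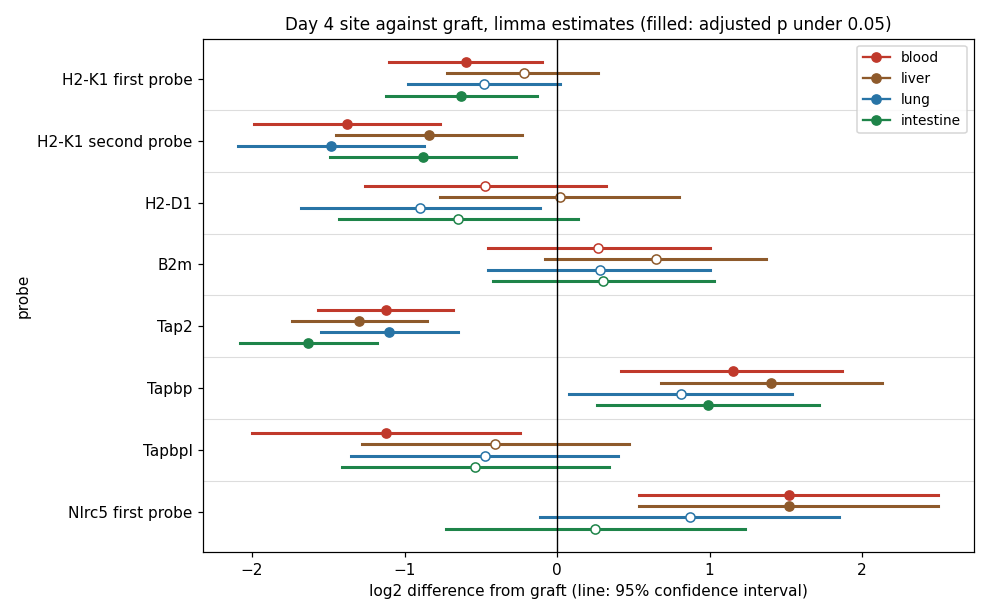
Limma log2 difference from graft (horizontal axis) of each tested probe, by day 4 site, with its 95% confidence interval as a line. Filled points have an adjusted p under 0.05; Tap2 and the second H2-K1 probe are filled at all 4 sites, and Nlrc5 only in blood (1.52) and liver (1.52).

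Counted by site, 5 of the 7 member genes were called in blood (2 higher, 3 lower), where 57.8% of all probes were called, 34.4% higher and 23.4% lower. In liver 3 were called (2 higher, 1 lower), beside 52.0% of all probes (34.1% higher, 17.9% lower). In lung 1 was called, lower, beside 37.5% (24.9% higher, 12.6% lower), and in intestine 3 (1 higher, 2 lower), beside 35.5% (21.9% higher, 13.5% lower). Tap2 was the gene called at every site. Whether the sites differ in these counts was not tested. Lung held 1 called gene in the fit over all arrays, 4 without lung 4 and intestine 4, and 2 without lung 1, lung 3 or lung 4. The day 4 count of 4 was 2 without graft 1, graft 2 or graft 4, the blood count was 3 without graft 4, and the intestine count was 1 without graft 1, graft 2 or intestine 1. Shares of all probes called in these smaller fits are not given here.

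Between the 4 sites on day 4, limma called 0 of the 7 member genes in each of the 6 pairs. The share of all probes called was 0.889% for lung against blood (0.497% higher, 0.392% lower) and 10.5% for intestine against blood (1.63% higher, 8.83% lower). It was 0.279% for lung against liver (0.241% higher, 0.0377% lower), 0.286% for intestine against lung (0.0829% higher, 0.203% lower), and 0 for liver against blood and for intestine against liver. At an unadjusted p under 0.05, Tap2 and Nlrc5 passed for intestine against blood, Nlrc5 for intestine against liver, H2-D1 for lung against liver and Tap2 for intestine against lung by their brightest probes, while 0 genes passed in the other pairs. Without intestine 5, Nlrc5 was called in 2 pairs as above. With slide as a fixed term on the day 4 arrays the count was again 0 in all 6 pairs. With slide as a random block over all arrays, Nlrc5 was called for intestine against blood (-1.27, limma adjusted p 0.0478). With array weights Nlrc5 (-1.09, 0.00345) and Tap2 (-0.53, 0.0254) were called for that pair, and Nlrc5 for intestine against liver (-1.11, 0.00271). Wide intervals bound these results: for lung against liver H2-D1 differed by -0.91 (95% interval -1.65 to -0.17), and within slides by -1.94 to 0.01. B2m in intestine differed from blood by 0.03 (-0.65 to 0.71).

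Differences between 2 probes of the same array do not depend on the constant subtracted from each array, though they do depend on background correction and quantile normalisation. Set to 0 at the graft mean, the log2 level of B2m minus that of the first H2-K1 probe ran from -0.18 to 0.30 in the graft and from 0.44 to 1.42 on day 4 (mean 0.86 ± 0.32 SD, n = 20). All 20 day 4 arrays lay above every graft array, 5 in each site. Among all tested probes, 20.2% lay above the graft on all day 4 arrays in this way when set against H2-K1 (2.55% lay below), so this is not rare. Tapbp minus Tap2 ran from 1.43 to 3.34 (mean 2.38 ± 0.62 SD), again with 20 of 20 above the graft. Nlrc5 minus Tap2 ran from 0.48 to 3.70, also 20 of 20, and the share of all probes that rose against Tap2 on all arrays was 38.6%, with 0.934% lower. B2m minus Tap2 was above the graft on 19 of 20, H2-K1 minus Tap2 on 18 of 20 and Nlrc5 minus H2-K1 on 17 of 20. In all these pairs H2-K1 is its first probe. The mean of H2-K1 minus Tap2 was 0.81 ± 0.44 SD on day 4. Tap2 was thus lower relative to the first H2-K1 probe, and that probe lower relative to B2m. The order to Tap2 does not carry over to the second H2-K1 probe, which differed from the graft by -1.14 beside -1.29 for Tap2. It fell further than Tap2 in blood (-1.38 against -1.12) and lung (-1.48 against -1.10). In liver (-0.84 against -1.30) and intestine (-0.88 against -1.63) it fell less. The within-array pairs share members and were chosen after earlier results of these data were known.

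**Figure D3:**
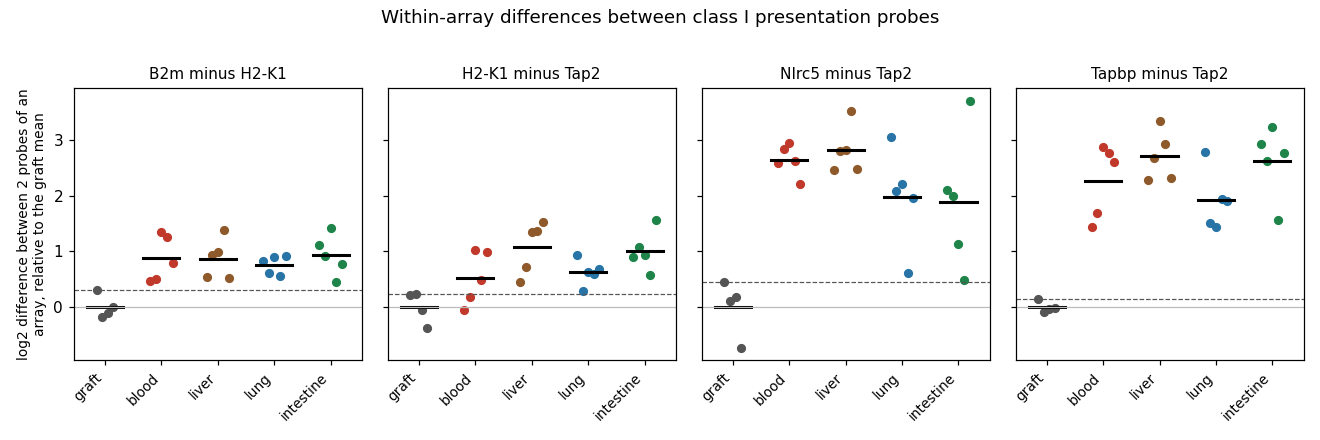
Difference between the log2 levels of 2 probes on the same array (vertical axis), set to 0 at the graft mean, for 4 graft arrays and 5 arrays of each day 4 site. Bars are group means and the dashed line is the highest graft array, with H2-K1 and Nlrc5 read by their first probes. For B2m minus H2-K1, Nlrc5 minus Tap2 and Tapbp minus Tap2 all 20 day 4 arrays lie above it. For H2-K1 minus Tap2 18 of 20 do.

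The other genes of the pathway were taken from lists fixed by function. The 5 other scalings counted for them include both quantile normalisation and the nearly identical deposited table, and normexp, which is a background correction. The heavy chain list of other class I genes had 15 tested of 23 on the array. Of these 2 were called higher, 5 lower and 8 not, with a median log2 difference of -0.20. Of all probes 33.8% were called higher and 21.4% lower. H2-Q4 fell (-2.41, limma adjusted p 2.60e-08), as did Hfe, which controls iron uptake (-2.74, 5.85e-05), and H2-Bl (-0.69, 0.00147). H2-Q5 rose by 1.79 (7.64e-06), and H2-M2 rose by 1.50 (0.0139). Hfe was well above background on all 4 graft arrays and on 2 of 20 day 4 arrays, so the size of its fall rests on day 4 signals near background (-3.28 to -1.01 over the other scalings). Hfe passed the filter through the graft alone, so its lower call is no independent support. H2-Q, H2-T, H2-K and H2-D genes are related in sequence, and the Q4 and Q5 probes in opposite directions are therefore uncertain as to the gene. The 2 higher calls were 1 under scalings to detected probes, which lost H2-M2.

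Chaperones and quality control factors of the endoplasmic reticulum had all 9 genes tested. Of these 5 were called higher and 0 lower (median 0.56), beside 33.8% and 21.4% of all probes. Sec61a1, the translocation channel, differed by 0.78 (limma adjusted p 0.00230), Canx, calnexin, by 0.77 (0.00157), Bcap31 by 0.72 (0.00679) and Uggt1, which re-glucosylates misfolded glycoproteins, by 0.56 (0.0223). These calls rest on the scaling: with quantile normalisation, the deposited table or the 75th percentile of detected probes 0 of 9 were called, with the median of detected probes 0 were higher and 2 lower, and with normexp 4 were higher and 0 lower. With the 75th percentile of all probes, the number called higher was 4 for blood, 6 for liver, 0 for lung and 2 for intestine, beside 34.4%, 34.1%, 24.9% and 21.9% of all probes. Whether the sites differ in these counts was not tested.

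Among immunoproteasome subunits and the PA28 activator, 2 of 5 were called higher and 1 lower, near the 33.8% and 21.4% of all probes. The catalytic subunits Psmb8 and Psmb9, which sit beside Tap1 and Tap2 in the MHC locus, had differences of 0.76 (limma adjusted p 0.00776) and 0.74 (0.00226), and Psmb10 fell by 0.80 (6.89e-04). Psmb10 was lower under all 5 other scalings, while Psmb8 and Psmb9 were called under 1 of 5, with differences from 0.22 to 0.93 and from 0.20 to 1.03. The PA28 genes Psme1 (0.11) and Psme2 (0.07) were not called, and turned negative under 4 of 5 scalings. Of the 3 constitutive catalytic subunits, Psmb6 was called higher (0.56, limma adjusted p 0.0100) and 0 were called lower. Psmb6 was called higher under 3 of 5 other scalings (0.02 to 0.87). Psmb7 (-0.20) was called lower under 3 of 5 (-0.74 to 0.05), so these calls rest on the scaling.

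Cytosolic peptidases, which shorten proteasome products, had 4 of 5 tested genes called higher and 0 lower (median 1.74), beside 33.8% and 21.4% of all probes. Lap3 passed the filter through day 4 arrays alone, so this count is no independent support. Lap3, leucine aminopeptidase, rose by a log2 difference of 3.91 (limma adjusted p 7.44e-10), Tpp2, tripeptidyl peptidase, by 2.06 (3.62e-07), Blmh, bleomycin hydrolase, by 1.74 (9.78e-04) and Thop1, thimet oligopeptidase, by 0.72 (0.0220). Lap3, Tpp2 and Blmh kept this call under all 5 other scalings, and Thop1 under 2. Lap3 was well above background on 1 of 4 graft arrays and on 20 of 20 day 4 arrays, and its measured difference depends on a graft signal near background (2.01 to 3.94 over the other scalings). Npepps was not called (0.12).

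The list of interferon gamma signalling and class I transcription factors had 12 tested genes. Of these 6 were called higher and 2 lower (median 0.67), beside 33.8% and 21.4% of all probes. The list has 19 genes, so only a part was tested. Ifng, Irf2 and Nfyb passed the filter through day 4 arrays alone, where they were high, so the count is no independent support. Ifng, the cytokine itself, rose (measured difference 5.92, limma adjusted p 4.57e-08). It was well above background on 1 of 4 graft arrays and 20 of 20 day 4 arrays, so the size rests on graft signals near background (3.75 to 5.74 over the other scalings). Its receptor chain Ifngr1 rose by 1.10 (0.00140). Irf2, also called higher, was well above background on 0 of 4 graft and 8 of 20 day 4 arrays, so no fold is given. The CCAAT-binding subunits Nfyc and Nfyb rose, Nfyc by 1.50 (2.97e-06), while Nfyb, well above background on 0 of 4 graft arrays, was at least 1.23-fold higher (adjusted p 7.77e-04). Irf1, an interferon-induced activator of class I genes, fell by 1.02 (limma adjusted p 0.00250), and Nfkb1 fell by 0.48 (0.0303). Under the other scalings Irf1 was called lower in 4 of 5 and Nfkb1 in 5 of 5. The bound for Nfyb compares the day 4 mean with the lowest signal that counted as well above background on each graft array.

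Class II presentation genes, the branch that B cells and other antigen-presenting cells use, moved much further. Of 8 tested, 7 were lower and 0 higher (median -3.96), beside 21.4% and 33.8% of all probes. A gene that is high in the graft, such as H2-Aa, can pass the filter through the graft alone. Log2 differences were -5.56 for H2-Ab1 (limma adjusted p 0.00253), -5.08 for H2-Aa (2.15e-07), -2.49 for H2-Oa (2.46e-06) and -1.77 for H2-DMa (4.15e-07). They were also lower under all 5 other scalings. H2-Aa was well above background on 4 of 4 graft arrays and on 2 of 20 day 4 arrays, so its size rests on day 4 signals near background (-5.62 to -3.02 over the other scalings). By site, 7 of 8 class II genes were called lower in blood (median -5.86), beside 23.4% of all probes. Liver also had 7 lower (median -5.36), beside 17.9%. Lung had 3 lower (-2.67), beside 12.6%, and intestine 3 (-2.48), beside 13.5%. Whether the sites differ in these counts was not tested.

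**Figure D4:**
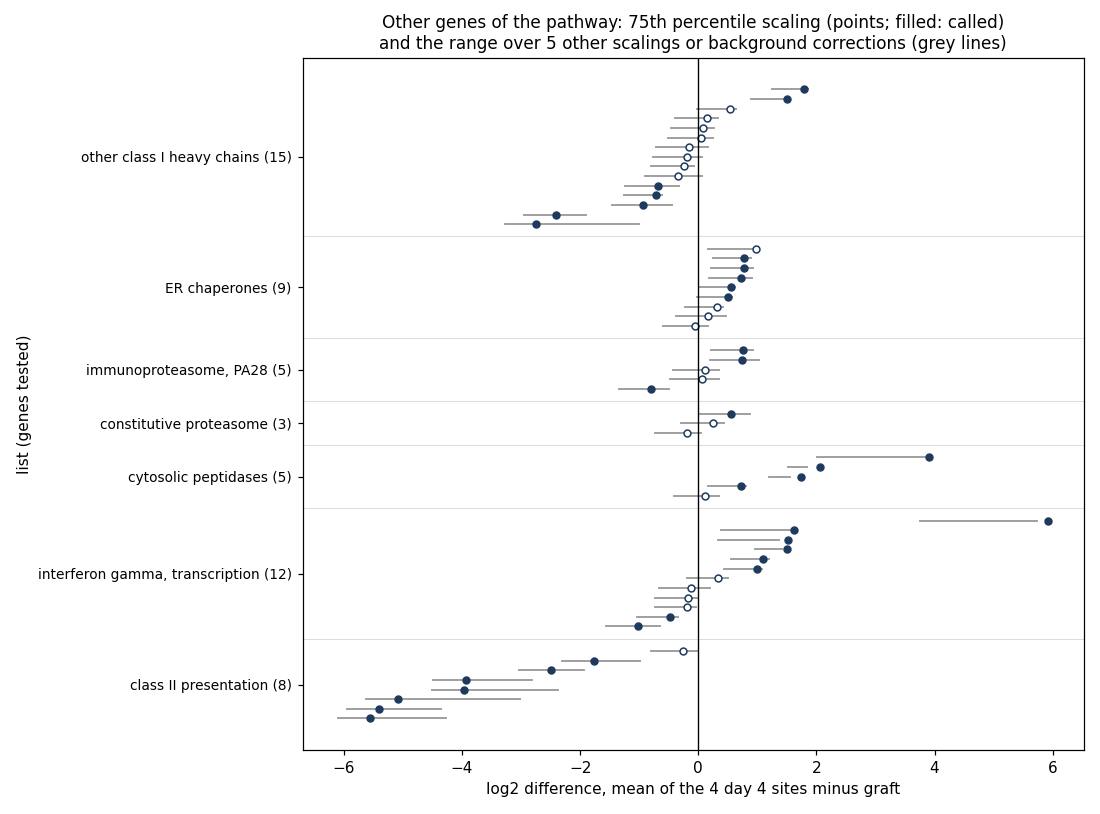
Log2 difference of the mean of the 4 day 4 sites from the graft (horizontal axis) for 57 tested genes of 7 lists, 1 point a gene, filled where called by limma. Grey lines span 5 other scalings or background corrections; they lie on both sides of 0 for 18 genes, and do not for Tpp2, Lap3, Blmh, Psmb10 or Ifng.

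The genes whose 5 group means were most like those of a member were found by the root mean square difference of the means after centring. For H2-K1 these were Gm5528 (0.032), Uqcrh (0.041) and Eif3k (0.045), and 52 of 9504 other tested genes lay within 0.1. For B2m they were 5730416F02Rik (0.016), Ubb (0.039) and Zdhhc3 (0.041), with 45 genes within 0.1. For Nlrc5, Incenp (0.049), Coro7 (0.069) and Rpa1 (0.079) were nearest and 9 genes lay within 0.1. The measure covers 5 groups only and is a description of these means.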

How the data were processed

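Each of the 24 samples was hybridised to 1 one-colour Agilent array. The authors deposited scanner files whose processed signal is an intensity, background-subtracted and detrended but not normalised between arrays, together with the mean and local background intensity of each spot and flags of 0 or 1 for spot quality (deposited flags, not a scale). Feature Extraction is given as version 9.5.1.1 per the file headers and 10.7 per the submitters' processing notes. The authors also deposited a log2 table with no stated scale; it matched quantile-normalised log2 processed signals minus each probe's median (lowest correlation 0.99999 across probes), with column medians from -0.03 to 0.03.

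Control spots and outlier-flagged spots were left out, spots of a probe were averaged, and each array's 75th percentile was subtracted from log2 of the processed signal. A probe was tested if well above background, on at least 50% of its spots, in at least 1 group on every array or all but 1. Limma 3.58.1 in R 4.3.3 was fitted with 1 mean per group over all 24 arrays, with 11 contrasts and Benjamini-Hochberg adjustment over 13277 probes. A gene with several probes stands by its brightest probe. The probe names came from the array's accession through RefSeq for 27508 probes, from a current symbol for 3544, a synonym for 404 and the file's name for 1808, and 6165 had none. From each pathway list the text names up to 4 called genes with the smallest adjusted p and those called against the list's majority; likeness was taken for H2-K1, B2m and Nlrc5, since Tap1 was not tested. The members, lists and within-array pairs were chosen with earlier results of these data known.

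Alternatives were other scalings, normexp (offset 50), the deposited table, other filters, array weights, slide as a fixed or random block (statmod 1.5.0), the replicate block, fits to the compared arrays only and leaving out each array. The test was checked on simulated data. Same-numbered day 4 arrays, which shared a slide, had deviations correlated from -0.38 to 0.58 (median 0.14, 18 of 30 pairs over 0.1). Differently numbered day 4 arrays had -0.64 to 0.65 (median -0.04, 38 of 120 pairs over 0.1). Same-numbered arrays were thus more alike at the median, and on day 4 number and slide cannot be told apart. The labels do not say that the numbers mark shared animals, so the main fit had no block.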

Additional observations from a re-analysis of the deposited data

Results flagged for a closer look

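In groups of 4 or 5 arrays, a single array was singled out where its gap to the nearest other value took up most of the group's range. Of 55 groups of member probes examined, 2 held such an array, and chance alone marks about 1 in 20 groups. For B2m in lung, lung 5 had a log2 level of 6.08, while the nearest lung array was at 5.47 and the lowest at 5.23. For Tapbpl in blood, blood 3 had a log2 level of -3.41, where the probe was not well above background, while the other blood arrays lay between -0.58 and -0.28.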

How the results depend on the processing

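Of 88 results for member probes, 60 stayed on their side of the threshold in all alternatives run, 37 of them with the same sign throughout, while 13 lost a call and 15 gained one in at least 1. The sign turned in at least 1 alternative for 24, of which 0 were called with the 75th percentile scaling, and 0 were called with the opposite sign. The numbers of member genes called moved more. With quantile normalisation or the deposited log2 values, 2 were called in blood, 2 in lung and 1 in intestine. With the 75th percentile of detected probes 3 were called in blood and 3 in lung, with their median 3 in lung, and with normexp 3 in blood. Without a filter on dim probes 1 was called in intestine, and with probes well above background on all 24 arrays 3 in blood. Array weights gave 5 in lung, 2 for intestine against blood and 1 for intestine against liver. Without lung 4 and intestine 4 together 4 were called in lung. Fits to the compared arrays only gave 5 in liver, 3 in lung and 1 in intestine. Slide as a random block (consensus correlation 0.11) gave 2 on day 4, 3 in blood, 1 in intestine and 1 for intestine against blood. The fit with the replicate block gave 2 called genes in lung and, in intestine, 2, where the Tapbp call was lost (0.97, limma adjusted p 0.0567); in lung the first H2-K1 probe was called (-0.59, 0.0267). Leaving out 1 array at a time gave 2 to 5 called genes on day 4 (5 without blood 3), 3 to 5 in blood, 1 to 2 in intestine, 1 to 2 in lung, 0 to 1 for intestine against blood and 0 to 1 for intestine against liver. With the median of detected probes Calr (-0.03), Ganab (-0.38), Psme1 (-0.43) and Psme2 (-0.48) turned negative. The cause of these changes was not tested. The planned lower bound on a fold gave no value for a member, since the bound for Erap1 was below 1. Signals near background limit Tap1, Erap1, Tapbpl and the second Nlrc5 probe.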
